A study of Homo sapiens with 12 samples.

Results

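The extended family of miR-15, miR-16, miR-424 and miR-503 is a group of related microRNAs, short RNAs that repress messenger RNAs by pairing with them through bases 2 to 8, the seed. The members were taken by name from the mature miRNA names of the deposited count table and are hsa-miR-16-5p, hsa-miR-15a-5p, hsa-miR-15b-5p, hsa-miR-424-5p and hsa-miR-503-5p, together with hsa-miR-16-2-3p and hsa-miR-424-3p, which come from the opposite arms of 2 of their hairpins. All 7 names had a line in the table, of 1277 miRNAs in all. The measurements come from 12 small RNA libraries of a DROSHA knockout of HCT116, a human colorectal carcinoma cell line. DROSHA is the nuclear enzyme that cuts miRNA hairpins out of their primary transcripts, so the knockout cells lack the cut that most miRNAs need. All cells, the controls included, were DROSHA knockouts and received 4.5 µg of the plasmid pXC-NLS-DG4. They received with it pCK-DROSHA_belt_deletion, pCK-DROSHA_m4, pCK-DROSHA wild type or the empty pCK plasmid, with 3 libraries for each of the 4 plasmids. What m4 alters, what pXC-NLS-DG4 codes for and whether the knockout line is a clone are not given in the sources used here. The labels number the repeats without saying that they are separate cultures, so p-values measure the spread between these libraries, which may be technical.

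The libraries held between 132667 and 407461 reads in the table, and 649 to 800 miRNAs were detected in each. Transcripts of DROSHA itself are outside what a miRNA table can show, so the knockout was not checked on its target. All 6 miRNAs listed as markers of colon epithelium and HCT116 (miR-200c-3p, miR-141-3p, miR-192-5p, miR-194-5p, miR-215-5p and miR-21-5p) had reads. Only 3 of the 6 passed edgeR's filter on low counts. The summed level of the 6 was 67812 to 79410 scaled reads with the belt deletion, 5768 to 9636 with m4, 47405 to 102880 with wild type and 1826 to 2525 with the empty plasmid. This sum does not show the 6 separately. Of 5 blood markers miR-223-3p, miR-142-3p and miR-144-3p had no read, and the other 2 had 4 reads in all libraries together. Markers of other cell types were not all absent. Of the pair of neuronal markers miR-124-3p had no read and miR-9-5p had 649, and of the pair of muscle markers miR-133a-3p had no read and miR-1-3p had 3. The endothelial miR-126-3p had 2577 reads, the smooth muscle markers miR-143-3p and miR-145-5p had 1847 together, and the liver miRNA miR-122-5p had 772. Their part in the results was not tested.

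Members of the family with the seed AGCAGC are known as brakes on the cell cycle. miR-15a, miR-15b and miR-16 repress cyclins D and E and the survival factor BCL2, and the loss of the mir-15a and mir-16-1 locus is a well-known event in chronic lymphocytic leukaemia. miR-424 and miR-503 are made from a shared transcript, rise in differentiating cells and repress cyclins and CDC25A. After DROSHA has released a hairpin, Dicer removes its loop, and the 5p or the 3p strand of the resulting duplex is kept by an Argonaute protein. For miR-16 and miR-424 the 5p strand is the one that carries the family seed, and the 3p strand is the usual passenger.

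The mature sequences are given because the family is defined by them and because the arms behave differently in the data. They were taken from RefSeq (GRCh38.p14), where 25 of 26 listed miRNAs were found, and are written 5′ to 3′ with the seed, bases 2 to 8, in capitals.
miR-16-5p: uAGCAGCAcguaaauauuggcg
miR-15a-5p: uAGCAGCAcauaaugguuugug
miR-15b-5p: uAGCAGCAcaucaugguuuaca
miR-424-5p: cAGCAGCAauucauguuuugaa
miR-503-5p: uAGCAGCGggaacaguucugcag
miR-103a-3p: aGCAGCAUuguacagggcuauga
miR-107: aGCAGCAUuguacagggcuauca
miR-16-2-3p: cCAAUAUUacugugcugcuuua
miR-424-3p: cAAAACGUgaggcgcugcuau
The seed AGCAGCA is shared by miR-16-5p, miR-15a-5p, miR-15b-5p and miR-424-5p, and miR-503-5p differs from them in the last base of the seed. In RefSeq 7 listed miRNAs have this seed, of which 5 had a line in the table and 170 reads in all. miR-103a-3p and miR-107, the relatives whose seed GCAGCAU is offset by 1 base, differ from each other at 1 position, with 22 of 23 positions identical. The 3p members have seeds of their own. The seed of miR-16-2-3p, CAAUAUU, also stands in miR-195-3p.

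The hairpins show where each arm lies, with the mature arms in capitals.
MIR16-2: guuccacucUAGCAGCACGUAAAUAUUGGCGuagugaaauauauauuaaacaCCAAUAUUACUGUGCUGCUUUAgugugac
MIR424: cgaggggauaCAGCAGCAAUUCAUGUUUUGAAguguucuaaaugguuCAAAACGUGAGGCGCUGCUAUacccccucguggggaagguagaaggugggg
MIR503: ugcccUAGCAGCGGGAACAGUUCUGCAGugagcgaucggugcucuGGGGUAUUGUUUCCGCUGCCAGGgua
In RefSeq coordinates on GRCh38.p14, MIR15B (chr3:160404588-160404685) and MIR16-2 (chr3:160404745-160404825) lie 59 bases apart on the plus strand, in introns of SMC4, a condensin subunit gene. MIR16-1 (chr13:50048973-50049061) and MIR15A (chr13:50049119-50049201) lie 57 bases apart on the minus strand within the noncoding gene DLEU2, MIR16-1 in an intron and MIR15A in an exon of at least 1 transcript. MIR503 (chrX:134546328-134546398) and MIR424 (chrX:134546614-134546711) lie 215 bases apart on the minus strand within the noncoding gene MIR503HG, MIR503 in an intron and MIR424 in an exon of at least 1 transcript. The same mature miR-16-5p is cut from MIR16-1 and MIR16-2, and the table lists the same 141 reads under both, so these reads cannot be given to either locus. The letters UGU, known from apical loops that the DROSHA complex binds, stand between the arms of MIR424 and of none of the other 5 hairpins of the family. They were sought on the hairpin strand only, and 249 of 739 human hairpins in the table of sequences (33.7%) hold them there.

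The family was rare in these libraries. Its 7 members had 1010 reads together, 299 with the belt deletion, 208 with m4, 369 with wild type and 134 with the empty plasmid. They made up 0.0120% to 0.0638% of the reads of a library. miR-16-2-3p had 697 of these reads, miR-16-5p 141, miR-424-3p 91, miR-503-5p 58, miR-424-5p 18, miR-15b-5p 3 and miR-15a-5p 2. The 3p strands of MIR16-2 and MIR424, the usual passengers, thus had more reads than the 5p strands that carry the family seed. Of the 7 members, 4 passed edgeR's filter on low counts and were tested among 310 miRNAs. miR-424-5p, miR-15a-5p and miR-15b-5p did not pass it. Since DROSHA acts on most miRNAs at once, reads were scaled to hairpins that mature without DROSHA, and levels below are scaled reads. In cultures of many cells, fewer cells with a miRNA and less of it per cell cannot be told apart.

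**Figure D1:**
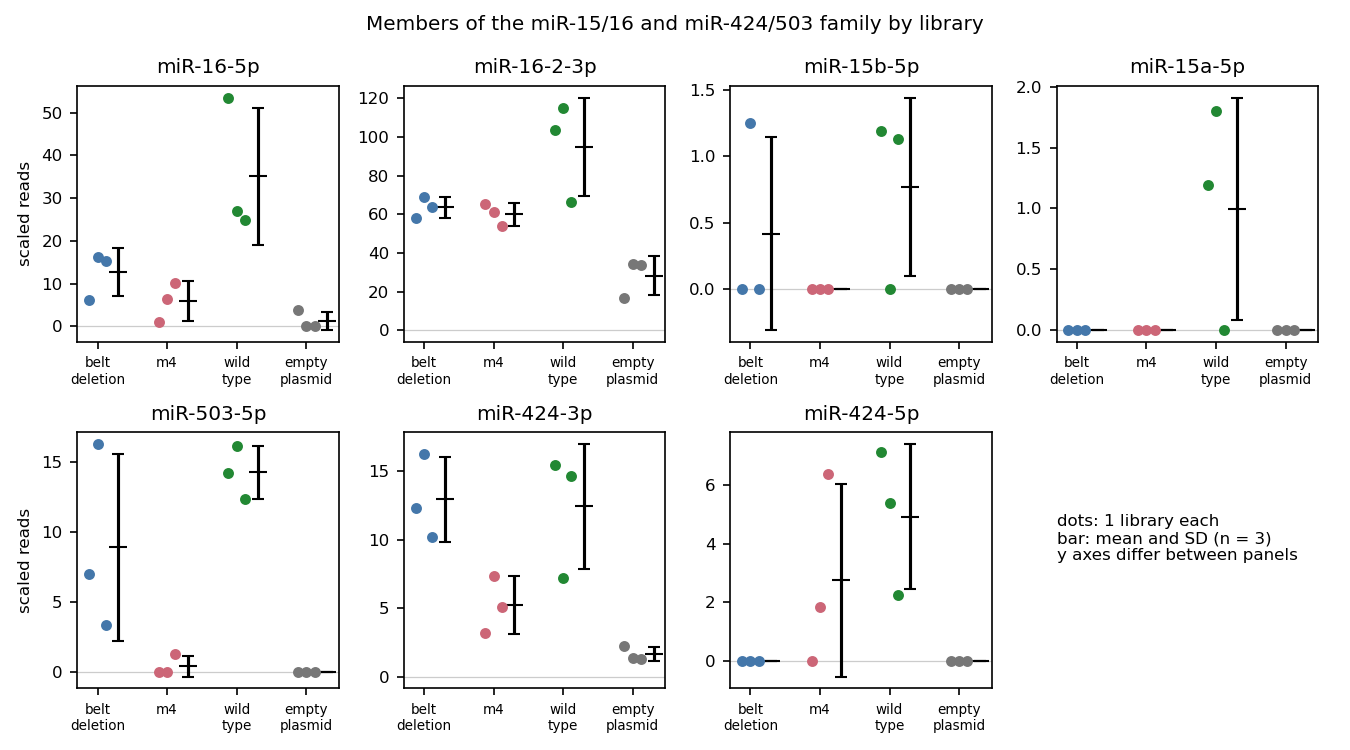
Scaled reads (vertical axis, a separate linear scale per panel) of the 7 members in each library (points), with group means (bars), for the belt deletion, m4, wild type and empty plasmids. With wild type miR-16-5p stood at 24.8 to 53.5 scaled reads, above all other libraries, and miR-503-5p had reads in every belt deletion and wild-type library but in 1 of 6 m4 and empty libraries.

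The tested members were lowest with the empty plasmid, as the plot of scaled reads by library shows. With wild type all 4 tested members were higher than with the empty plasmid (edgeR quasi-likelihood test, Benjamini-Hochberg adjusted p under 0.05), where 42.6% of all tested miRNAs were called higher. With the belt deletion the same 4 were higher than with the empty plasmid, against 42.9% called higher among all tested miRNAs. With m4, 2 of the 4, miR-16-5p and miR-16-2-3p, were higher than with the empty plasmid, against 41.0% of all. The calls of both ended under TMM scaling and under DESeq2, where 0 of the 4 were called. Between plasmids that code for DROSHA, miR-16-5p and miR-503-5p were lower with m4 than with wild type, against 34.2% of all tested miRNAs called lower. None of the 4 differed between the belt deletion and wild type, where 12.6% of all were called. That count of 0 is edgeR's, with 1 member at an unadjusted p under 0.05, and DESeq2 also called 0. miR-503-5p was the only member called between the mutants, higher with the belt deletion, against 25.8% of all called higher.

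The median log2 change of the 4 tested members against the empty plasmid was 3.07 with the belt deletion, 1.81 with m4 and 3.82 with wild type. With miR-503-5p, which had no read with the empty plasmid, set at the lowest change that 3 reads over the group allow, the wild-type median was 3.60 and the belt deletion median was unchanged at 3.07. The medians of all 310 tested miRNAs were 0.73 with the belt deletion, 0.83 with m4 and 0.72 with wild type. Against wild type the members' median was -0.65 with the belt deletion and -1.92 with m4, and that of all tested miRNAs was 0.04 with the belt deletion and -0.19 with m4. These comparisons share their control libraries. The level that the filter asks for was reached by miR-16-2-3p in all 12 libraries, but by miR-16-5p, miR-424-3p and miR-503-5p in 0 empty libraries. With m4, miR-16-5p reached it in 1 library and miR-424-3p and miR-503-5p in 0. These 3 members entered the test through the groups where they are high. Their calls, and the counts and medians against the empty plasmid, are therefore descriptions only. The same holds for m4 against wild type and for the belt deletion against m4.

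**Figure D2:**
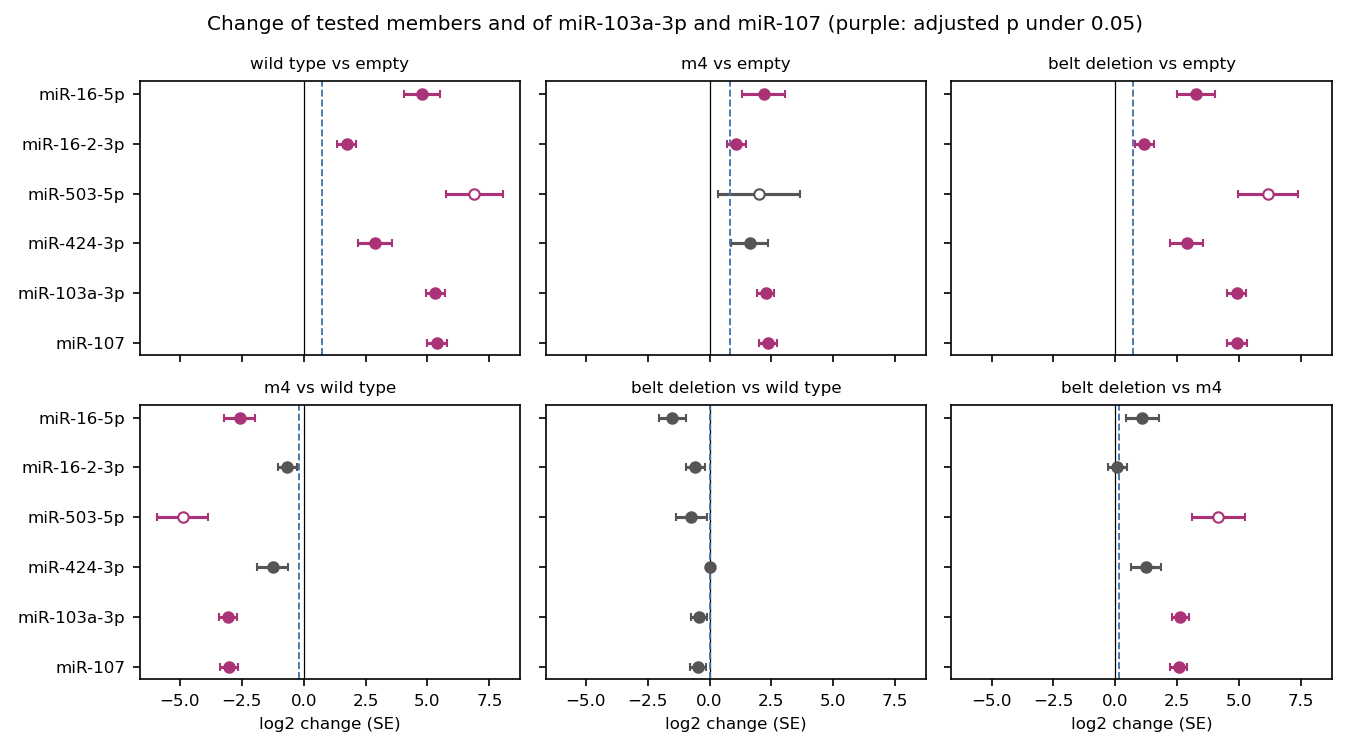
Log2 change (horizontal axis, with SE) of the 4 tested members and of miR-103a-3p and miR-107 in the 6 comparisons. Purple points have an adjusted p under 0.05 in edgeR, grey points do not, white-filled points mark miR-503-5p where a group had 0 or 1 read, and the dashed line is the median of all 310 tested miRNAs. miR-424-3p against wild type with the belt deletion lies at 0.00 and has no SE bar.

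hsa-miR-16-5p, the 5p member with the most reads, had 7, 13 and 18 reads with the belt deletion, 1, 7 and 8 with m4, 45, 15 and 22 with wild type and 5, 0 and 0 with the empty plasmid. Every wild-type library was above every other library in scaled reads, and all 5 reads of the control came from empty replicate 1. Of all tested miRNAs 52.3% did not overlap between wild-type and empty libraries. The means were 12.6 ± 5.60 scaled reads with the belt deletion, 5.93 ± 4.61 with m4, 35.1 ± 15.99 with wild type and 1.25 ± 2.17 with the empty plasmid (SD, n = 3 each). The order was thus wild type, belt deletion, m4 and empty plasmid, and the neighbours belt deletion and m4 overlapped, as did m4 and the empty plasmid.

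Against the empty plasmid miR-16-5p rose with wild type by 4.76 on the log2 scale (SE 0.73, edgeR adjusted p = 1.7e-07), or 27.2-fold. With the belt deletion it rose by 3.27 (SE 0.77, edgeR adjusted p = 0.000348), and with m4 by 2.18 (SE 0.86, edgeR adjusted p = 0.0371). Without empty replicate 1 the control held no read. The fitted changes were then 6.68 with the belt deletion, 5.58 with m4 and 8.15 with wild type, and these sizes are not measured folds. Without empty replicate 3 the wild-type change was 4.17. The m4 call is fragile. It ended under TMM scaling (adjusted p = 0.21), in DESeq2 (adjusted p = 0.156), when the hairpin lines of a name were summed (adjusted p = 0.18), and when any 1 of 8 libraries, replicates 2 and 3 of each group, was left out, with adjusted p from 0.0517 to 0.239. Summed lines count each miR-16-5p read under both hairpins.

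Among the DROSHA plasmids miR-16-5p fell by 2.59 on the log2 scale with m4 relative to wild type (SE 0.62, edgeR adjusted p = 0.000562), and the groups did not overlap, as for 42.3% of all tested miRNAs. That call ended when the hairpin lines of a name were summed (adjusted p = 0.0584), a setting that counts each miR-16-5p read under both hairpins. With the belt deletion the change relative to wild type was -1.50 (SE 0.56, edgeR adjusted p = 0.0723). It missed the threshold although the belt deletion and wild-type libraries did not overlap, as was the case for 32.3% of all tested miRNAs. Without empty replicate 1 the same change of -1.47 had an adjusted p of 0.0343. Belt deletion and m4 differed by 1.09 (SE 0.66, edgeR adjusted p = 0.272), and their libraries overlapped.

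hsa-miR-16-2-3p, the other arm of MIR16-2, was the most abundant member and the only one with 22 or more reads in every library. It had 66, 55 and 75 reads with the belt deletion, 61, 66 and 42 with m4, 87, 64 and 59 with wild type and 22, 49 and 51 with the empty plasmid. All libraries with a DROSHA plasmid were above all empty libraries in scaled reads, while the belt deletion libraries overlapped both m4 and wild type. Of all tested miRNAs 50.3% did not overlap between belt deletion and empty libraries, 47.1% between m4 and empty libraries, and 52.3% between wild-type and empty libraries. Levels were 63.7 ± 5.46 scaled reads with the belt deletion, 60.1 ± 5.91 with m4, 95.02 ± 25.4 with wild type and 28.2 ± 10.1 with the empty plasmid (SD, n = 3 each).

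The changes of miR-16-2-3p against the empty plasmid were smaller than those of miR-16-5p. It rose by 1.17 with the belt deletion (SE 0.38, edgeR adjusted p = 0.00728), by 1.09 with m4 (SE 0.38, edgeR adjusted p = 0.0149) and by 1.74 with wild type (SE 0.38, edgeR adjusted p = 5.34e-05). The calls depended on the scaling. The wild-type call ended under total-count scaling (adjusted p = 0.0504). The belt deletion call ended under TMM (0.269), total-count scaling (0.444), DESeq2 (0.347) and without empty replicate 1 (0.0865), all adjusted p. The m4 call ended under TMM (0.265), DESeq2 (0.218) and without empty replicate 1 (0.129). Differences between the DROSHA plasmids missed the threshold in edgeR. They were -0.57 for the belt deletion against wild type (SE 0.37, adjusted p = 0.321), -0.66 for m4 against wild type (SE 0.37, adjusted p = 0.162) and 0.08 for the belt deletion against m4 (SE 0.37, adjusted p = 0.932). The m4 difference from wild type was 0.43 under total-count scaling. The difference between belt deletion and m4 was -0.06 under TMM, -0.18 in DESeq2 and -0.95 under total-count scaling, where its adjusted p was 0.0396.

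The balance between the arms of MIR16-2 does not depend on the scaling between libraries. The 3p share of its reads was 83.8% with the belt deletion (80.6% to 90.4% in single libraries), 91.4% with m4 (84.0% to 98.4%), 71.9% with wild type (65.9% to 81.0%) and 96.1% with the empty plasmid (81.5% to 100%). Empty replicates 2 and 3 had 3p reads alone, with lower bounds of the 95% Wilson interval of 92.7% and 93.0%. Intervals cover counting error only, since reads without molecular identifiers are not independent molecules. Among the 41 hairpins with both arms tested, 5 had a higher 3p share than MIR16-2 with the empty plasmid.

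Empty replicates 2 and 3 had no 5p read of MIR16-2, so their ratio of 3p to 5p reads is set by the offset of 0.5 reads. Sizes and p-values against the empty plasmid depend on that offset and are descriptions only. The log2 ratio of 3p to 5p reads of MIR16-2 fell by 3.65 with wild type relative to the empty plasmid (SE 0.85, limma adjusted p over 41 hairpins = 0.000177), where 29.3% of the hairpins were called. It fell by 2.71 with the belt deletion (SE 0.85, limma adjusted p = 0.00569), where 31.7% were called. With m4 the change of -1.51 missed the threshold (limma adjusted p = 0.294), where 17.1% were called. The wild-type call ended without empty replicate 2 (-2.89, adjusted p = 0.061) or 3 (-2.86, 0.18), and was -5.19 without empty replicate 1. The belt deletion call ended likewise (-1.95, adjusted p = 0.257, and -1.93, 0.379), and was -4.25 without empty replicate 1. The m4 change passed the threshold without empty replicate 1 (-3.05, adjusted p = 0.0062) or m4 replicate 1 (-2.38, 0.04).

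Between DROSHA plasmids the arm ratio of MIR16-2 was higher by 2.14 with m4 than with wild type but missed the threshold (limma adjusted p = 0.0764), where 4.88% of the hairpins were called. It passed with an offset of 1 read instead of 0.5 (1.98, adjusted p = 0.0492). Without single libraries it missed the threshold, with limma adjusted p from 0.0558 to 0.409. The difference then ranged from 1.27 without m4 replicate 1 to 2.79 without m4 replicate 3. The belt deletion differed from wild type by 0.94 (adjusted p = 0.623), where 14.6% were called, and from m4 by -1.20 (adjusted p = 0.298), where 19.5% were called. The level that the filter asks for was reached by miR-16-5p in 2 belt deletion, 1 m4 and 3 wild-type libraries. The hairpin thus entered this test through the groups where its 5p strand is high, and these differences are descriptions only. The miR-16-5p reads in the arm ratio can come from MIR16-1 as well. The 3p strand of that hairpin, miR-16-1-3p, had 4 reads, 2 with the belt deletion and 2 with wild type.

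**Figure D3:**
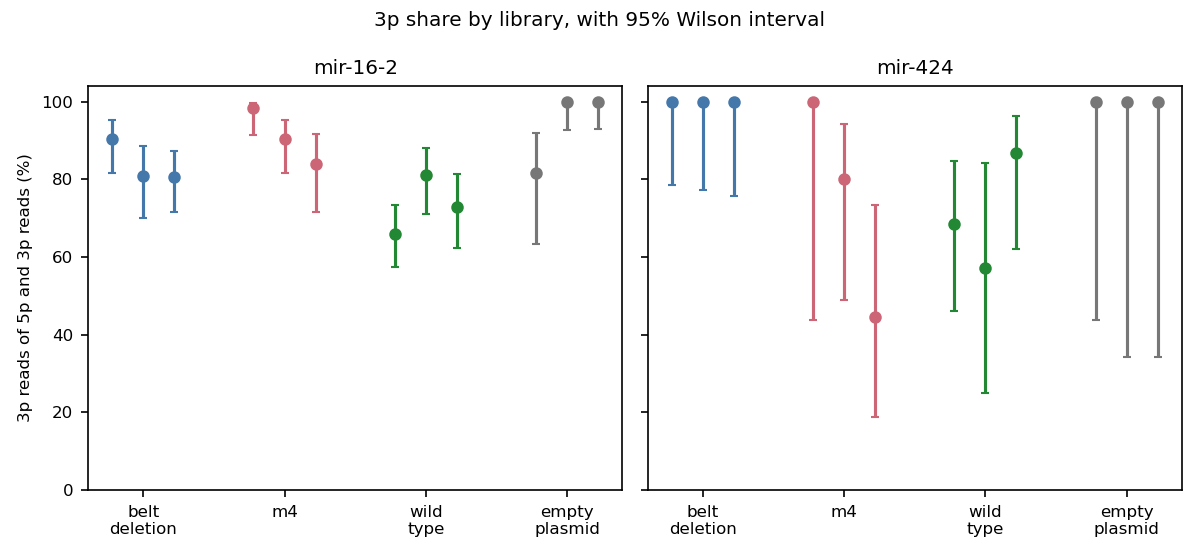
Share of 3p reads among 5p and 3p reads (percent) of mir-16-2 and mir-424 in each library, with 95% Wilson intervals, for the belt deletion, m4, wild type and empty plasmids. The mir-16-2 share was 65.9% to 81.0% in wild-type libraries, and mir-424 had 3p reads alone in all belt deletion and empty libraries.

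miR-15a-5p and miR-15b-5p, which name the family, had the fewest reads. miR-15b-5p had 1 read with the belt deletion, 0 with m4, 2 with wild type and 0 with the empty plasmid. miR-15a-5p had 2 reads, both with wild type, in replicates 1 and 2. These counts allow no comparison. Where a group had no read, the limit that a count of 0 allows, 3 reads over the group, is 0.000335% of the reads with the belt deletion, 0.000692% with m4, 0.000445% with wild type and 0.000412% with the empty plasmid. The 3p strand of MIR15B had more reads than its 5p strand, with 7 for the belt deletion, 6 for m4, 6 for wild type and 0 for the empty plasmid. The log2 ratio of miR-15b-5p to its cluster neighbour miR-16-2-3p changed by -0.74 to 0.30 over the 6 comparisons (two-sided exact permutation p from 0.3 to 1). With 3 reads of miR-15b-5p in all, this ratio is set by the offset of 0.5 reads and by the reads of miR-16-2-3p.

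On the X chromosome the 3 strands of the mir-424 and mir-503 cluster stood in unequal proportions across the plasmids. hsa-miR-503-5p, the member with the differing seed, had 8, 13 and 4 reads with the belt deletion, 0, 0 and 1 with m4, 12, 9 and 11 with wild type and 0 in all 3 empty libraries. Every wild-type and belt deletion library was above every m4 and empty library. Among all tested miRNAs the groups did not overlap for 50.3% in belt deletion against empty, 52.3% in wild type against empty, 42.3% in m4 against wild type and 34.8% in belt deletion against m4. Levels were 8.92 ± 6.65 scaled reads with the belt deletion, 0.427 ± 0.739 with m4 and 14.3 ± 1.90 with wild type (SD, n = 3 each).

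miR-503-5p was at least 19.96-fold higher with wild type than with the empty plasmid, counting the control at 3 reads over the group (edgeR adjusted p = 2.45e-07). The belt deletion left it at least 11.5-fold higher (edgeR adjusted p = 9.62e-06). Without belt deletion replicate 2 that limit is 7.40-fold. Without empty replicate 2 or 3 the limits are 7.61-fold and 7.42-fold for the belt deletion, and 13.2-fold and 12.9-fold for wild type. All these limits take the reads of the higher group as exact and leave out its counting error. With m4 the 1 read of miR-503-5p set against 0 gives no fold (edgeR adjusted p = 0.362). It was lower with m4 than with wild type (edgeR adjusted p = 5.54e-05), and the ratio of wild type over m4 was 39.2 with a 95% counting interval from 6.54 to 1595. The belt deletion also exceeded m4 (edgeR adjusted p = 0.00147), with a ratio of 22.5 and an interval from 3.68 to 924. Relative to wild type the belt deletion change was -0.73 (SE 0.63, edgeR adjusted p = 0.474), and the groups overlapped. The fitted log2 changes of m4 against wild type and of the belt deletion against m4 were -4.89 and 4.16, and without m4 replicate 3, which holds the only m4 read, -6.93 and 6.18. Without belt deletion replicate 2 the change against m4 was 3.47, that against wild type -1.44, and that against the empty plasmid 5.50 in place of 6.16. Fitted sizes against a group with no read are not measured folds.

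miR-424-3p, the passenger strand of MIR424, had 14, 13 and 12 reads with the belt deletion, 3, 8 and 4 with m4, 13, 4 and 13 with wild type and 3, 2 and 2 with the empty plasmid. The belt deletion libraries were above all m4 and empty libraries in scaled reads, and wild type overlapped both the belt deletion and m4. Among all tested miRNAs the groups did not overlap for 34.8% in belt deletion against m4 and 50.3% in belt deletion against empty. Levels were 12.95 ± 3.08 scaled reads with the belt deletion, 5.24 ± 2.09 with m4, 12.4 ± 4.56 with wild type and 1.66 ± 0.519 with the empty plasmid (SD, n = 3 each). Against the empty plasmid it rose by 2.87 with the belt deletion (SE 0.67, edgeR adjusted p = 0.00017) and by 2.87 with wild type (SE 0.69, edgeR adjusted p = 0.000211).

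With m4 the change of miR-424-3p against the empty plasmid was 1.62 (SE 0.76, edgeR adjusted p = 0.077), although the groups did not overlap, as for 47.1% of all tested miRNAs. Without m4 replicate 1 the change was 1.86 and its adjusted p 0.0431. Relative to wild type, m4 differed by -1.25 (SE 0.62, edgeR adjusted p = 0.107) and the belt deletion by 0.00 (edgeR adjusted p = 1). The difference between belt deletion and m4 was 1.25 (SE 0.61, edgeR adjusted p = 0.143), and these groups did not overlap, as for 34.8% of all.

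hsa-miR-424-5p, the strand with the family seed, had no read in any belt deletion library. It had 0, 2 and 5 reads with m4, 6, 3 and 2 with wild type and none with the empty plasmid. Each wild-type library thus had reads where no belt deletion library had any, while m4 overlapped both. Among all tested miRNAs, which do not include this strand, 32.3% did not overlap between the belt deletion and wild type. It was at least 4.99-fold lower with the belt deletion than with wild type, and at least 2.59-fold lower than with m4, counting the belt deletion at 3 reads over the group. Relative to the empty plasmid it was at least 3.57-fold higher with m4 and at least 6.86-fold higher with wild type, on the same floor. All these limits take the reads of the higher group as exact and leave out its counting error. Both limits for m4 rest on m4 replicate 3: without it 2 m4 reads are left, which is under the floor and gives no limit.

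Fewer libraries at 0 also lower these limits, in recomputations chosen after the data had been seen. Without belt deletion replicate 1 or 3 they were 3.16-fold and 3.10-fold for the belt deletion against wild type, and 1.64-fold and 1.61-fold against m4. Without empty replicate 2 or 3 they were 2.37-fold and 2.31-fold for m4, and 4.55-fold and 4.44-fold for wild type.

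With no filter on low counts, so that 1277 miRNAs entered the edgeR fit, miR-424-5p was lower with the belt deletion than with wild type (adjusted p = 0.0339). In that fit it was higher than with the empty plasmid with wild type (adjusted p = 0.00246) and with m4 (adjusted p = 0.04), and the belt deletion against m4 missed the threshold (adjusted p = 0.118). These calls rest on 18 reads in all.

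**Figure D4:**
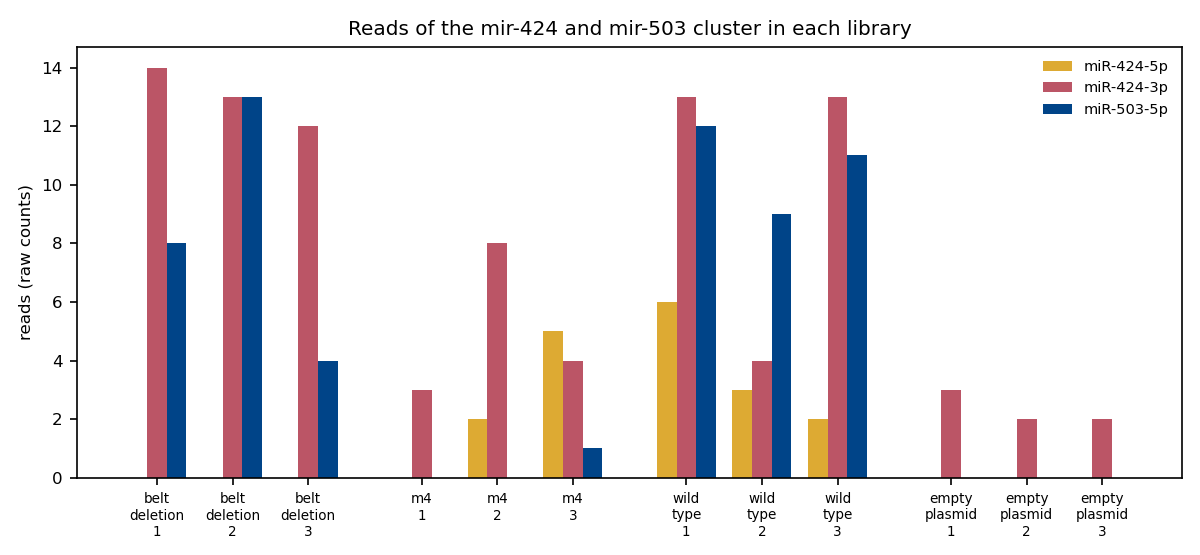
Raw reads (vertical axis) of the strands of the mir-424 and mir-503 cluster in each of the 12 libraries, grouped by plasmid in the order belt deletion, m4, wild type and empty. Belt deletion libraries had 12 to 14 reads of miR-424-3p, 4 to 13 of miR-503-5p and 0 of miR-424-5p, while the 3 m4 libraries together had 15 of miR-424-3p, 1 of miR-503-5p and 7 of miR-424-5p.

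The plot of raw reads of the cluster sets these strands side by side within each library, where scaling plays no part. Of the reads of MIR424, the 3p strand had 39 of 39 with the belt deletion, 15 of 22 with m4, 30 of 41 with wild type and 7 of 7 with the empty plasmid. The 95% Wilson intervals had lower bounds of 75.8% to 78.5% in the belt deletion libraries. In the wild-type libraries they ran from 46.0% to 84.6%, 25.05% to 84.2% and 62.1% to 96.3%, around shares of 68.4%, 57.1% and 86.7%. Each wild-type interval thus overlapped those of the belt deletion libraries. The log2 ratio of miR-424-3p to miR-424-5p differed by 0.14 for m4 against wild type (two-sided exact permutation p = 0.9), in a test chosen after the values had been seen. With 0 reads of miR-424-5p in every belt deletion library, this ratio is set there by the offset of 0.5 reads, so no size and no test of it is given for the belt deletion.

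The neighbours miR-424-5p and miR-503-5p can likewise be set side by side in reads. miR-503-5p exceeded miR-424-5p in all 3 belt deletion libraries and in all 3 wild-type libraries. With m4, replicates 2 and 3 had more reads of miR-424-5p than of miR-503-5p, 2 against 0 and 5 against 1, and replicate 1 had no read of either. The log2 ratio of the neighbours was -2.20 to -0.94 with wild type. With the mutants it is set by the offset, since miR-424-5p had no read in any belt deletion library and miR-503-5p had none in m4 replicates 1 and 2, so no size or p is given for its difference.

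Other strands of these clusters were too rare to test. Of the 7 listed strands of the neighbouring X-linked mir-450 and mir-542 hairpins, 4 had reads, 48 in all, and none passed the filter. miR-542-3p had 0 reads with the belt deletion, 1, 0 and 1 with m4, 4, 4 and 0 with wild type and 0 with the empty plasmid. miR-450a-5p had 3 reads with the belt deletion, 9 with m4, 4 with wild type and 3 with the empty plasmid, and miR-450b-5p had 3 with the belt deletion, 4 with m4, 6 with wild type and 5 with the empty plasmid. miR-542-5p had 1 read. Of 8 listed opposite arms of the wider family, 5 had reads, and the 2 that passed the filter were the members miR-16-2-3p and miR-424-3p. miR-195-3p, which shares the seed of miR-16-2-3p, had 41 reads, 16 with the belt deletion, 6 with m4, 9 with wild type and 10 with the empty plasmid, while its partner miR-195-5p and the clustered miR-497-5p had no line in the table.

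The relatives with the offset seed, miR-103a-3p and miR-107, which lie in introns of pantothenate kinase genes, were far more abundant than the family. miR-103a-3p had 1244 reads with the belt deletion, 182 with m4, 1185 with wild type and 58 with the empty plasmid, and miR-107 had 1117 with the belt deletion, 170 with m4, 1085 with wild type and 51 with the empty plasmid. Because they differ at 1 base near the 3′ end, their reads may have been divided or counted under both names, and their values are uncertain as separate miRNAs. In scaled reads miR-103a-3p stood at 407 ± 59.9 with the belt deletion, 65.9 ± 11.3 with m4, 547 ± 182 with wild type and 13.6 ± 3.07 with the empty plasmid (SD, n = 3 each). The m4 libraries did not overlap the belt deletion, wild-type or empty libraries, as for 34.8% of all tested miRNAs in belt deletion against m4, 42.3% in m4 against wild type and 47.1% in m4 against empty, and the belt deletion and wild type overlapped.

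miR-103a-3p rose on the log2 scale against the empty plasmid by 4.89 with the belt deletion (edgeR adjusted p = 3.75e-19), by 2.26 with m4 (adjusted p = 1.76e-07) and by 5.31 with wild type (adjusted p = 1.74e-20). It fell by 3.05 with m4 relative to wild type (SE 0.35, edgeR adjusted p = 1.04e-11). The belt deletion differed from wild type by -0.42 (SE 0.32, edgeR adjusted p = 0.414) and from m4 by 2.63 (SE 0.34, edgeR adjusted p = 1.13e-09). miR-16-5p and miR-503-5p were called in the same direction in m4 against wild type, and miR-503-5p also in the belt deletion against m4. Over the 11 listed miRNAs with the family or the offset seed, 8 had a line and 4 were tested (miR-16-5p, miR-503-5p, miR-103a-3p and miR-107). All 4 were higher than with the empty plasmid with the belt deletion (42.9% of all tested miRNAs) and with wild type (42.6%), and 3 with m4 (41.0%). All 4 were lower with m4 than with wild type (34.2% of all), their belt deletion differences from wild type had edgeR adjusted p from 0.0723 to 0.474, and 3 were called higher in belt deletion over m4 libraries (25.8% of all). Since miR-103a-3p and miR-107 may be the same reads, the 4 may count 3 miRNAs. miR-16-5p and miR-503-5p passed the filter through the groups where they are high, so their part in these counts is a description only. The direct difference between these miRNAs and the family members was not tested.

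The miRNAs whose levels ran most like those of miR-16-5p over the 12 libraries were miR-196b-5p, miR-30d-5p and miR-151a-3p. Likeness is the root mean square difference of log2 (scaled reads + 1), centred on each miRNA's mean, and it was 0.660, 0.690 and 0.696. For miR-424-5p, with its 18 reads, the nearest were miR-128-3p, miR-186-5p and miR-92a-3p, at 0.691, 0.766 and 0.813. The libraries share the scaling, and these are descriptions only. Unlike miR-16-5p, all 3 of its nearest miRNAs were called lower with the belt deletion than with wild type by edgeR, where 12.6% of all tested miRNAs were called in either direction. The changes were -1.37 for miR-196b-5p (edgeR adjusted p = 0.00488), -2.33 for miR-30d-5p (adjusted p = 1.13e-07) and -1.37 for miR-151a-3p (adjusted p = 0.00118). They were chosen by likeness over these same libraries, which favours a shared direction, so these calls are descriptions too. miR-16-5p, at -1.50, changed by a similar amount with 141 reads in all, and the difference between it and these miRNAs was not tested.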

How the data were processed

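Small RNA libraries (RNA of 19 to 24 nt from 10 µg of total RNA, per the labels' protocols) gave 1 deposited table, raw counts with a line for each mature miRNA of each hairpin. The submitters' processing notes name cutadapt, Bowtie2 and hg38. The counter, the annotation and the handling of reads that match several hairpins are not given in the sources used here. Blank cells were read as 0. Lines of 1 mature name were collapsed to the line with most reads. Another 9 pairs of names had matching reads (within 5 reads or 5%, over more than 120 reads) and were merged, which left 1277 miRNAs.

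Counts were divided by size factors, the median ratio over 5 DROSHA-independent features (miR-1226, miR-1224, miR-877, miR-484 and summed miR-320), those of the list that reached 20 reads in all libraries. After scaling, their log2 differences from the empty plasmid still ran from -0.67 to 0.41 with the belt deletion, -0.54 to 0.42 with m4 and -0.38 to 0.39 with wild type. For the belt deletion against wild type they ran from -0.37 to 0.76. The SEs do not include this spread. Groups were compared with edgeR 4.0.16 (filterByExpr, robust quasi-likelihood F test, R 4.3.3) in 1 fit of 12 libraries, with Benjamini-Hochberg adjustment over 310 miRNAs and a threshold of 0.05. SE is the log2 change over the root of the F value. Arm ratios used limma 3.58.1 on log2 ratios with an offset of 0.5 reads over 41 hairpins, and ratios of neighbours an exact permutation test. DESeq2 1.42.0 and other scalings were alternatives. The scripts were tested on simulated data.

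Collapsed depths were 101886 to 332081 reads per library, and members with few reads have wide counting error. The members, lists and naming rule (all members, their other arms, and the 3 miRNAs most like miR-16-5p and miR-424-5p) were chosen with earlier results of these data known. Host genes are from GENCODE v29, and sequences from RefSeq (GRCh38.p14).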

Additional observations from a re-analysis of the deposited data

How the results depend on the processing

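Each comparison was recomputed under other scalings, DESeq2, no filter, summed lines and without each library. Of 390 recomputed counts and ratios 356 moved little, which means a count within 1.5 times the main count, or a ratio with the same direction and side of the threshold. Of 478 recomputed changes of single members, the ratio added later included, 440 kept direction and side. Both tallies hold ratios tested by exact permutation, whose smallest p is 0.1. These could not cross the threshold and could only change direction. Counts within that tolerance still moved: members called against empty were 3 in place of 4 for the belt deletion (TMM, total counts and DESeq2) and for wild type (total counts), and DESeq2 called 195 of all miRNAs in place of 134 for wild type. With the belt deletion, m4 and wild type in turn, other scalings moved the median of all miRNAs against the empty plasmid by -0.75, -0.65 and -0.86 (TMM), by -0.77, 0.25 and -0.82 (total counts) and by -0.79, -0.54 and -0.76 (DESeq2). Against wild type total counts moved it by 1.05 for m4. Called miRNAs against the empty plasmid were then 114 higher and 42 lower for the belt deletion, 84 and 19 for m4, and 125 and 93 (218 in all) for wild type under TMM. DESeq2 gave 111 and 41, 84 and 14, and 125 and 70. Total counts gave 109 and 33 for the belt deletion and 123 and 71 for wild type, 133 and 60 (193 in all) for m4 against wild type, and 47 and 121 (168 in all) for the belt deletion against m4. For m4 against wild type TMM gave 43 higher and 97 lower and DESeq2 39 and 96. For the belt deletion against wild type TMM gave 26 and 29.

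Members called for m4 against empty were 0 under TMM, 0 in DESeq2, 1 with lines summed, and 1 to 3 without single libraries. Members called for m4 against wild type were 1 with lines summed. For the belt deletion against wild type they were 1 with no filter and 0 to 1 without single libraries, and for the belt deletion against m4 they were 2 under total counts. The mir-16-2 arm ratio for the belt deletion against empty was -3.37 with lines summed (adjusted p = 0.105), and for m4 against wild type 1.98 with an offset of 1 read. Summed lines count each miR-16-5p read under both of its hairpins. Without single libraries the arm ratio ranged from -4.25 to -1.93 for the belt deletion, -3.05 to -0.72 for m4 and -5.19 to -2.86 for wild type, each against empty. The lowest of each was without empty replicate 1, where the offset sets every control ratio. Limits on both arms of 10 reads in every library left no value for this hairpin.

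Among single members, miR-16-2-3p turned to 0.43 for m4 against wild type under total counts, and to -0.055 (TMM), -0.95 (total counts) and -0.18 (DESeq2) for the belt deletion against m4. miR-424-3p for the belt deletion against wild type was -0.045 in DESeq2, -0.027 without miR-320 in the scaling, and -0.24 to 0.19 without single libraries. miR-503-5p for m4 against empty was 0 to 2.57 without single libraries. The ratio of miR-15b-5p to miR-16-2-3p for wild type against empty was -0.17 with an offset of 1 read. Without single libraries it was -0.17 to 0.68 for wild type and -0.88 to 0.16 for the belt deletion, each against empty, and -0.34 to 0.67 for the belt deletion against m4. The ratio of miR-424-3p to miR-424-5p for m4 against wild type was -0.074 with that offset and -0.55 to 1.00 without single libraries. The cause was not tested.

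Libraries with the same repeat number did not deviate together, with 2 of 18 correlations over 0.1 (from -0.25 to 0.13). No pairing by number was seen, which does not exclude one. With the replicate block in the fit, 4 members were called for the belt deletion, 2 for m4 and 4 for wild type, each against empty, 2 for m4 against wild type, 0 for the belt deletion against wild type and 1 for the belt deletion against m4, and miR-424-3p for the belt deletion against wild type was -0.012.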
